A study of Mus musculus with 72 samples.

Results

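The genes described here are 5 proneural basic helix-loop-helix (bHLH) factors (Neurog1, Neurog2, Neurod1, Neurod4 and Nhlh1) and 4 genes known as early neuron markers (Tubb3, Dcx, Elavl3 and Stmn2). They were chosen by name, and all 9 were found among the 45321 genes counted and among the 18273 that passed the filter on low counts. Mouse embryonic stem (ES) cells with and without Nup133, a scaffold subunit of the nuclear pore, were profiled by sequencing of messenger RNA at 3 days of a differentiation towards neuroectoderm. The 3 control samples of each day were HM1 in replicates 1 and 2 (Nup133+/+, 40 Chr, XY) and line 1A4 (Nup133+/+, Sox1gfp/+, 40 Chr, XY). The 3 mutant samples of each day, called knockout here, were line 14 (Nup133-/-, 40 Chr, XY), line 19 (Nup133-/-, likely 40 Chr, XY) and line 319 (Nup133merm/merm with Sox1gfp/+, given as 42 Chr, XX, with +8 and +12). Lines 14 and 19 are CRISPR/Cas9 derivatives of HM1, whereas lines 1A4 and 319 came from blastocysts, so each knockout sample is a line of its own and the controls are 2 lines. Day 0 cells were taken from serum and LIF after a plating step to remove feeder fibroblasts. Day 2 cells had been plated in N2B27 medium, and day 3 cells had then been given 1 µM all-trans retinoic acid for 24 h, so retinoic acid and the last day of culture cannot be told apart.

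Proneural bHLH factors bind E-box DNA as dimers with E proteins and switch on the genes of neuronal differentiation. Neurogenins act in dividing progenitors and commit them to a neuronal fate, and NeuroD and Nhlh factors follow them in cells that leave the cycle. Hes and Id proteins hold the factors back, Hes as repressors of their genes and Id by taking up their E protein partners. Newborn neurons then make a characteristic tubulin, microtubule regulators and RNA-binding proteins, which are used as markers of early neurons.

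Gene counts per sample ranged from 16.5 M in line 19 at day 2 to 54.4 M in line 14 at day 3. The Nup133 level in counts per 1e6 gene counts (CPM, scaled by TMM) was 269 ± 47.7 in controls and 29.6 ± 6.81 in knockouts at day 0 (SD, n = 3 each), 244 ± 20.9 and 25.3 ± 9.20 at day 2, and 194 ± 19.3 and 18.5 ± 5.02 at day 3. The summed level of 6 pluripotent cell markers went from 3280 to 3530 CPM at day 0 through 1010 to 1090 CPM at day 2 to 308 to 366 CPM at day 3 in controls, and from 3730 to 4820 CPM through 910 to 1190 CPM to 106 to 415 CPM in knockouts. Chromosome-wide levels did not all follow the labels. In the line labelled +8 and +12, the median log2 difference from line 1A4 was 0.44 to 0.48 over chromosome 12 genes and 0.48 to 0.70 over X-linked genes across the 3 days, but −0.58 to −0.41 over the 751 genes of chromosome 8. In line 19 the same median for chromosome 8 against HM1 was −0.39 to −0.22. The median over other autosomes lay between −0.05 and −0.02 for line 319 against 1A4. Tubb3 lies on chromosome 8 and Dcx on the X chromosome, and the part of these shifts in their values was not tested. Nup133 lies on chromosome 8 as well, from 123897123 to 123949265, close to Tubb3 (123411424 to 123422015). An effect of that nearness on Tubb3 in the mutant lines was not tested. All levels are of bulk RNA, in which more cells of a type and more RNA per cell cannot be told apart.

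The bHLH genes and the neuron markers did not follow a single course. On day 0 the early neuron markers Stmn2 and Tubb3 were the most abundant of the 9 genes, and both were lower on day 3 in every line, when the cells had been exposed to retinoic acid. Neurog1, Neurod4 and Nhlh1 were near 0 on day 0 and reached about 1 CPM or more in at least 2 control samples on day 3. Dcx was near 0 on day 0 as well, and the mean of Elavl3 was highest on day 2 in both genotypes. Stmn2, Tubb3 and Elavl3 were thus present in the day 0 cultures, and bulk RNA does not show in which cells. Their day 0 levels are therefore not read here as a sign of early neurons. The feeder and pluripotent marker sums were also highest at day 0, and their part in these levels was not tested.

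Levels of different genes can be compared only per length of transcript. In day 0 controls the order in CPM per kilobase was Stmn2 (128 ± 21.4), Tubb3 (55.2 ± 12.1), Elavl3 (2.00 ± 0.231) and Neurod1 (1.88 ± 0.531), then Neurog1 (0.0779 ± 0.00729), with SD over n = 3, and Elavl3 and Neurod1 did not differ beyond their spread. Neurog2, Neurod4, Nhlh1 and Dcx held at most 3 counts in every day 0 sample of either genotype. In day 3 controls the order was Stmn2 (30.5 ± 2.00), Tubb3 (19.7 ± 5.31), Neurod1 (4.38 ± 0.884), Elavl3 (1.95 ± 0.186), Neurod4 (1.07 ± 0.654), Neurog1 (0.815 ± 0.473), Nhlh1 (0.462 ± 0.328), Dcx (0.0741 ± 0.0309) and Neurog2 (0.0490 ± 0.0519) CPM per kilobase. Neurod4, Neurog1 and Nhlh1 were neighbours in that order with overlapping spreads, and so were Dcx and Neurog2. In day 3 knockouts Stmn2 was at 21.6 ± 3.49 and Tubb3 at 18.1 ± 7.58 CPM per kilobase, and these did not differ beyond their spread. Next came Neurod1 (4.13 ± 0.966), Elavl3 (2.42 ± 0.60), Nhlh1 (0.460 ± 0.253), Neurod4 (0.382 ± 0.141), Dcx (0.267 ± 0.202), Neurog1 (0.254 ± 0.0352) and Neurog2 (0.242 ± 0.219), of which the last 5 overlapped.

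Between day 0 and day 2, the exit from serum and LIF, 5 of the 9 genes changed in controls and 5 in knockouts by edgeR's quasi-likelihood test (Benjamini-Hochberg adjusted p below 0.05), where 35.2% and 35.9% of all genes tested did. In controls 4 were higher (Neurod4, Nhlh1, Dcx and Elavl3) and Stmn2 was lower, where 19.7% of all genes tested were called higher and 15.5% lower. In knockouts the test called Neurod4, Nhlh1, Dcx and Elavl3 higher and Stmn2 lower, where 20.8% of all genes were called higher and 15.1% lower. With the replicate block, which pairs the samples of a line across days, only Elavl3 and Stmn2 kept their call in controls (2 of 9 genes), and the adjusted p was 0.068 for Neurod4, 0.063 for Nhlh1 and 0.052 for Dcx. In knockouts the paired fit left Elavl3 without a call (adjusted p = 0.056). The share of all genes called in the paired fit was not taken.

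Between day 2 and day 3, the retinoic acid step, again 5 of the 9 genes changed in each genotype by the same test, beside 21.4% of all genes in controls and 33.6% in knockouts. In controls Neurog1, Neurod4 and Nhlh1 rose and Tubb3 and Elavl3 fell, where 12.5% of all genes were called higher and 8.92% lower. In knockouts Neurog1, Neurog2 and Dcx rose and Elavl3 and Stmn2 fell, where 17.6% were called higher and 16.0% lower. The genotype difference of this change was itself tested and called for none of the 9 genes, nor for the step from day 0 to day 2. Such a difference was called for 0.0383% of all genes (7 genes) in the later step and for 0.0219% (4 genes) in the earlier one. DESeq2 called none of the 9 in either step, and at an unadjusted p below 0.05 the edgeR counts were 3 and 0 of 9 for the later and earlier step. Over all 18273 genes tested these counts were 1626 and 1308.

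**Figure D1:**
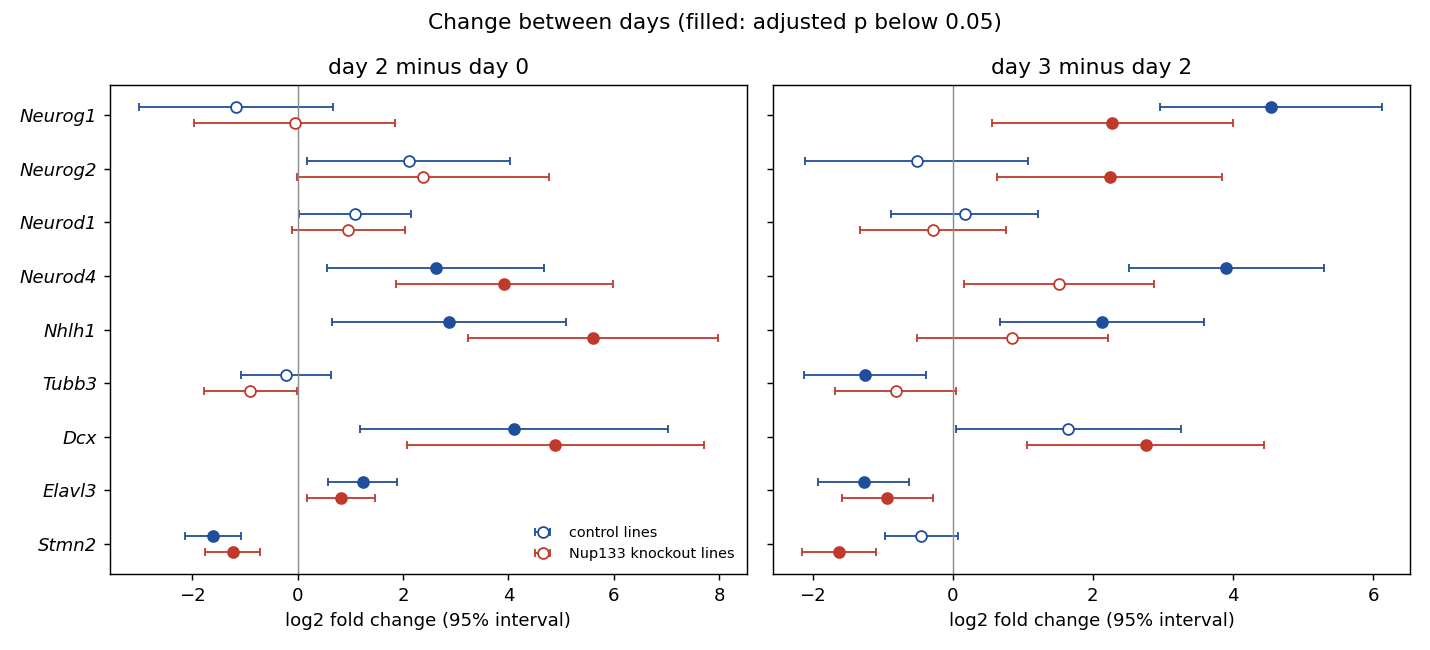
Log2 fold change between days with its 95% interval (x axis) for each gene (y axis), left from day 0 to day 2 and right from day 2 to day 3, in control lines (blue) and Nup133 knockout lines (red); filled points passed an adjusted p of 0.05. In the right panel Neurog1, Neurod4 and Nhlh1 are filled and above 0 in controls, and Neurog1, Neurog2 and Dcx are in knockouts; day 0 levels of Neurog2, Neurod4, Nhlh1 and Dcx are at most 3 counts, so the size of their fitted change in the left panel depends on the prior count.

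At a fixed day, no gene of the 9 was called different between knockout and control lines. The edgeR test called 0 of 9 at day 0, 0 of 9 at day 2 and 0 of 9 at day 3, where 0.854%, 1.60% and 5.19% of all genes tested were called in either direction. DESeq2 also called 0 of 9 at each day, and at an unadjusted p below 0.05 the edgeR counts were 0, 1 and 4 of 9. Over all 18273 genes tested the counts at that unadjusted threshold were 1946, 3735 and 4004. The median log2 difference of the 9 genes at day 3 was −0.09, beside 0.02 over all genes tested, and at day 2 the 2 medians were 0.53 and 0.02. Samples of the genotypes did not overlap for Stmn2 (all knockouts higher) and Tubb3 (all knockouts lower) at day 2, as for 9.94% and 11.7% of all genes in those directions. At day 3 they did not overlap for Neurog1 and Stmn2 (all knockouts lower), as for 17.6% of all genes.

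The promoters of the genes that moved together were read from RefSeq (GRCm38.p6), and 8 of the 9 genes matched. The windows hold the 250 bases before the annotated start of each gene and are shown for Neurog1, Neurod4 and Nhlh1, which rose together in controls at day 3, and for Elavl3, which fell. Capitals mark E-boxes, the motif CANNTG (N is any base), which reads the same on both strands as a pattern and is the known binding site of bHLH dimers.
Neurog1, chr13:56252181-56252430, minus strand: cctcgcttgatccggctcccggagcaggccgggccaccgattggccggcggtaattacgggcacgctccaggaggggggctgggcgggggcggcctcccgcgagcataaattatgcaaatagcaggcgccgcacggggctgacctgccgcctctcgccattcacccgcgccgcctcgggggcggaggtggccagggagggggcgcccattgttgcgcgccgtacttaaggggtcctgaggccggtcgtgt
Neurod4, chr10:130280255-130280504, minus strand: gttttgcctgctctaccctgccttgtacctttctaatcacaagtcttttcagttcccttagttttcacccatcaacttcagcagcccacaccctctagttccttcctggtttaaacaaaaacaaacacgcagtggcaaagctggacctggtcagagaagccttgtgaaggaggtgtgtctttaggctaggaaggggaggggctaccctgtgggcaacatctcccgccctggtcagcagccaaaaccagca
Nhlh1, chr1:172057597-172057846, minus strand: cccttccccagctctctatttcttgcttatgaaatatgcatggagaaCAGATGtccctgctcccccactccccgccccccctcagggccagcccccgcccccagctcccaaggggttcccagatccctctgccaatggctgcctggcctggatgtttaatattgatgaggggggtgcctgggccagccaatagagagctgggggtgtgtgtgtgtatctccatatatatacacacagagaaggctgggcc
Elavl3, chr9:22052024-22052273, minus strand: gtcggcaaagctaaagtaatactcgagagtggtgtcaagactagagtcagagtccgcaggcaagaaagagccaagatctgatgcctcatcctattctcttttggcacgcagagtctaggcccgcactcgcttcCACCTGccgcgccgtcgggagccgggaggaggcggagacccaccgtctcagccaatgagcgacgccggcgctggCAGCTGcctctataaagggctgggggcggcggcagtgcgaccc
The Neurog1 and Neurod4 windows hold no E-box. The Nhlh1 window holds 1 (CAGATG), a form found in 14.4% of the 32851 promoter windows of this length, and the Elavl3 window holds CACCTG and CAGCTG, the latter found in 13.0%. Any E-box at all was present in 66.2% of the windows and in 3 of the 8 matched genes, the third being Neurod1. The windows of Neurod1, Neurog2, Tubb3 and Dcx reach into the counted transcript as GENCODE annotates it, so they are not wholly upstream. CAGATG and CAGCTG are both instances of CANNTG, so the counts overlap. A direct repeat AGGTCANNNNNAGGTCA, a form bound by retinoic acid receptors, searched on both strands, was in none of the 8 windows and in 0.00913% of all windows.

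Neurog1 encodes a neurogenin that commits progenitors to a neuronal fate and is known from cranial sensory ganglia and the dorsal neural tube. Its single exon lies on chromosome 13 from 56250478 to 56252163 on the minus strand (GRCm38). At day 0 the gene was at 0.13, 0.14 and 0.12 CPM in HM1 replicates 1 and 2 and line 1A4, and at 0.10, 0.02 and 0.14 CPM in lines 14, 19 and 319. At day 2 the controls were at 0.04, 0.05 and 0.08 CPM and the knockouts at 0.02, 0.00 and 0.26 CPM. The day 3 controls held 2.10, 1.5 and 0.52 CPM and the knockouts 0.36, 0.48 and 0.44 CPM. Both HM1 samples stood far above all others at day 3, and line 1A4, the lowest control, lay just above line 19, the highest knockout.

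The rise of Neurog1 from day 2 to day 3 was 4.54 ± 0.75 on the log2 scale in controls (SE, adjusted p = 0.00053, higher in 3 of 3 controls) and 2.28 ± 0.81 in knockouts (adjusted p = 0.041, higher in 3 of 3). In summed counts it went from 8 to 143 reads in controls, a ratio of CPM of 23.2 (95% interval 11.5 to 54.8, counting error only), and from 7 to 53 reads in knockouts, a ratio of 5.25 (2.38 to 13.7). The control call held in 15 of 15 alternative settings, and its size was 5.20 without line 1A4. The knockout call held in 10 of 15. It was 4.52 without line 319 and was not called without HM1 replicate 1 (adjusted p = 0.070), HM1 replicate 2 (0.083), line 14 (0.25), line 19 (0.13) or the day 2 sample of line 19 (0.088). The genotype difference of the rise was −2.26 ± 1.19 (adjusted p = 0.57), and without line 319 it was 0.17 (adjusted p = 0.96). Without that line the day 2 knockouts hold 1 read of Neurog1, so both values without it rest on that read.

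The day 3 Neurog1 level in knockouts minus controls was −1.72 ± 0.60 on the log2 scale (95% interval −3.01 to −0.44, adjusted p = 0.11). Within the HM1-derived samples the difference was −2.13 (adjusted p = 0.019) and was called. It was also called without line 319 (−1.91, adjusted p = 0.028) and without line 1A4 (−2.42, adjusted p = 0.044). Line 14 lay 2.14 and line 19 lay 1.78 below HM1 on the log2 CPM scale, whereas line 319 differed from 1A4 by −0.22 and 1A4 from HM1 by −1.67. The difference between the control lines was therefore close in size to that between the HM1-derived knockouts and HM1.

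Neurog2, the neurogenin of cortical and spinal progenitors, has 2 exons on chromosome 3 from 127633135 to 127635631 on the plus strand. It had the lowest day 3 mean per length of the 5 bHLH genes in both genotypes, in knockouts within the spread of Neurog1. Day 0 samples held at most 3 counts, and day 2 samples were at 0.22, 0.09 and 0.14 CPM in controls and at 0.10, 0.08 and 0.13 CPM in knockouts. Day 3 controls were at 0.24, 0.03 and 0.05 CPM and lines 14, 19 and 319 at 0.31, 1.10 and 0.21 CPM. Line 19 was the only sample of the 18 above 0.4 CPM, and line 319 was below HM1 replicate 1, so the genotypes overlapped.

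In knockouts Neurog2 rose by 2.24 ± 0.76 from day 2 to day 3 (SE, log2 scale, adjusted p = 0.033, higher in 3 of 3 lines), from 9 to 59 summed counts. The value without line 19 was 1.30 (adjusted p = 0.27), so the call rests on that line. It was also lost without HM1 replicate 1 (adjusted p = 0.054) or the day 2 sample of line 19 (0.074). In controls the step was −0.51 ± 0.75 (adjusted p = 0.68), and the genotype difference between the steps was 2.75 ± 1.07 (adjusted p = 0.53). The knockout minus control difference at day 3 was 2.13 ± 0.69 (95% interval 0.66 to 3.61, adjusted p = 0.085), from 12 summed reads in controls and 59 in knockouts. It ranged from 1.30 to 3.25 over 13 alternatives and was called in 0 of them.

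Neurod1, a factor of differentiating neurons and of pancreatic endocrine cells, has 2 exons on chromosome 2 from 79452521 to 79456751 on the minus strand. It shares 201 bases of exon with Cerkl on the same strand and 154 bases with Gm26755 on the other, so its level is uncertain. Control levels were 4.71, 3.94 and 6.74 CPM at day 0, 8.65, 6.79 and 17.56 CPM at day 2, and 14.62, 11.32 and 9.92 CPM at day 3. Knockout levels were 6.65, 11.29 and 2.57 CPM at day 0, 14.56, 5.96 and 21.22 CPM at day 2, and 9.12, 14.21 and 10.48 CPM at day 3. Neurod1 was the only bHLH gene of the 5 with more than 3 counts in every sample, and it was one with widely scattered lines and overlapping genotypes at every day.

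No step of Neurod1 was called. From day 0 to day 2 the log2 change was 1.08 ± 0.50 in controls (SE, adjusted p = 0.10) and 0.96 ± 0.51 in knockouts (adjusted p = 0.15). The control step was called without line 19 (adjusted p = 0.030) or line 319 (0.035). The knockout step was 1.93 and called without line 19 (adjusted p = 0.0076), and 1.36 and called without its day 2 sample (0.044). The blastocyst-derived lines 1A4 and 319 were the highest of their genotypes at day 2. The knockout minus control difference was 0.48 ± 0.50 at day 0 (adjusted p = 0.87), 0.35 ± 0.49 at day 2 (0.72) and −0.09 ± 0.49 at day 3 (0.94), with a 95% interval of −1.13 to 0.94 at day 3. Of the endocrine markers, Ins1 and Gcg were at 0 in all 18 samples, but Chga was present in every group. Chga was at 5.23 ± 0.77 CPM in controls and 9.38 ± 2.01 CPM in knockouts at day 3 (edgeR adjusted p = 0.074). Pdx1 was at 0.20 ± 0.08 and 0.92 ± 0.97 CPM there (edgeR adjusted p = 0.055).

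Neurod4 encodes a bHLH factor that acts downstream of neurogenins, and it has 2 exons on chromosome 10 from 130268152 to 130280240 on the minus strand. No day 0 sample held more than 3 counts. At day 2 the controls were at 0.36, 0.26 and 0.08 CPM and lines 14, 19 and 319 at 0.87, 0.68 and 0.00 CPM. By day 3 the controls were at 5.63, 3.87 and 1.28 CPM and the knockouts at 1.19, 1.79 and 0.85 CPM. Both HM1 samples were again the highest of day 3, and line 1A4 lay among the knockouts.

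Neurod4 rose in controls by 3.91 ± 0.66 from day 2 to day 3 (SE, log2 scale, adjusted p = 0.00064, higher in 3 of 3). The call held in 15 of 15 alternatives, with values from 3.90 to 3.94. From 4 summed reads at day 0 to 374 at day 3 the ratio of CPM was 93.2 in controls (95% interval 36.1 to 344, counting error only), and from 3 to 157 reads it was 49.5 in knockouts (16.6 to 242). The knockout step from day 2 to day 3 was 1.52 ± 0.64 (adjusted p = 0.076) and was called by DESeq2 (adjusted p = 0.017). The genotype difference between these steps was −2.39 ± 0.90 (adjusted p = 0.52), and without line 319 it was −3.07 and called (adjusted p = 0.017).

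From day 0 to day 2 Neurod4 was called higher in both genotypes, from 4 to 31 summed reads in controls (adjusted p = 0.047) and from 3 to 55 in knockouts (adjusted p = 0.0053). The control call was lost without HM1 replicate 1 (adjusted p = 0.27), HM1 replicate 2 (0.20), line 1A4 (0.12) or line 14 (0.053), with transcripts added up (0.055) and with no background term (0.11). The knockout call was lost without line 14 (adjusted p = 0.14). All 3 knockout reads of day 0 were in line 319, which had 0 at day 2. At day 2 the knockout minus control difference was 1.07 ± 0.69 (adjusted p = 0.40) with all samples and 1.36 without line 319, which was called (adjusted p = 0.047). At day 3 it was −1.31 ± 0.57 (95% interval −2.53 to −0.09, adjusted p = 0.19). The day 3 difference was called in HM1-derived samples (−1.71, adjusted p = 0.019), without line 319 (−1.71, adjusted p = 0.0074) and with day 3 fitted alone (−1.37, adjusted p = 0.038).

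Nhlh1, also called Hen1, is a bHLH factor of newly born neurons with 2 exons on chromosome 1 from 172052292 to 172057573 on the minus strand. At most 2 counts were present in any day 0 sample. Day 2 levels were 0.18, 0.26 and 0.18 CPM in controls and 0.57, 1.51 and 0.09 CPM in lines 14, 19 and 319. Day 3 levels were 1.67, 1.54 and 0.21 CPM in controls and 1.44, 1.54 and 0.41 CPM in knockouts. At day 3 the HM1-derived samples of both genotypes lay together, and both blastocyst-derived lines were low.

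From day 0 to day 3 the summed Nhlh1 reads went from 3 to 116 in controls, a ratio of CPM of 38.5 (95% interval 12.9 to 190, counting error only), and from 1 to 148 in knockouts, a ratio of 140 (24.7 to 5560). In controls both steps were called, with an adjusted p of 0.043 from day 0 to day 2 and a log2 change of 2.13 ± 0.69 from day 2 to day 3 (SE, adjusted p = 0.037, higher in 3 of 3). The later change was 2.89 and 2.37 in the HM1 replicates on the log2 CPM scale. In line 1A4 it was only 0.15, with 9 reads at day 2 and 8 at day 3. The earlier control call was lost without HM1 replicate 1 (adjusted p = 0.19), HM1 replicate 2 (0.28) or line 14 (0.072), with transcripts added up (0.055) and with no background term (0.10). The later one was lost without HM1 replicate 1 (adjusted p = 0.39), HM1 replicate 2 (0.28) or line 14 (0.073), with transcripts added up (0.063) and with no background term (0.052), and it was 2.86 without line 1A4. In knockouts the earlier step was called (adjusted p = 0.0012) and held in 15 of 15 alternatives, and the later one was 0.85 ± 0.64 (adjusted p = 0.32). The 1 knockout read of day 0 was in line 319, so no size is given for the earlier step.

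Knockout minus control, Nhlh1 differed by 1.39 ± 0.72 on the log2 scale at day 2 (adjusted p = 0.29) and by 0.11 ± 0.59 at day 3 (95% interval −1.14 to 1.36, adjusted p = 0.94). At day 2 lines 14 and 19 lay 1.22 and 2.54 above HM1, and line 319 lay 0.75 below 1A4. At day 3 line 1A4 lay 2.67 below HM1, the widest gap between control lines for any of the 9 genes at that day.

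**Figure D2:**
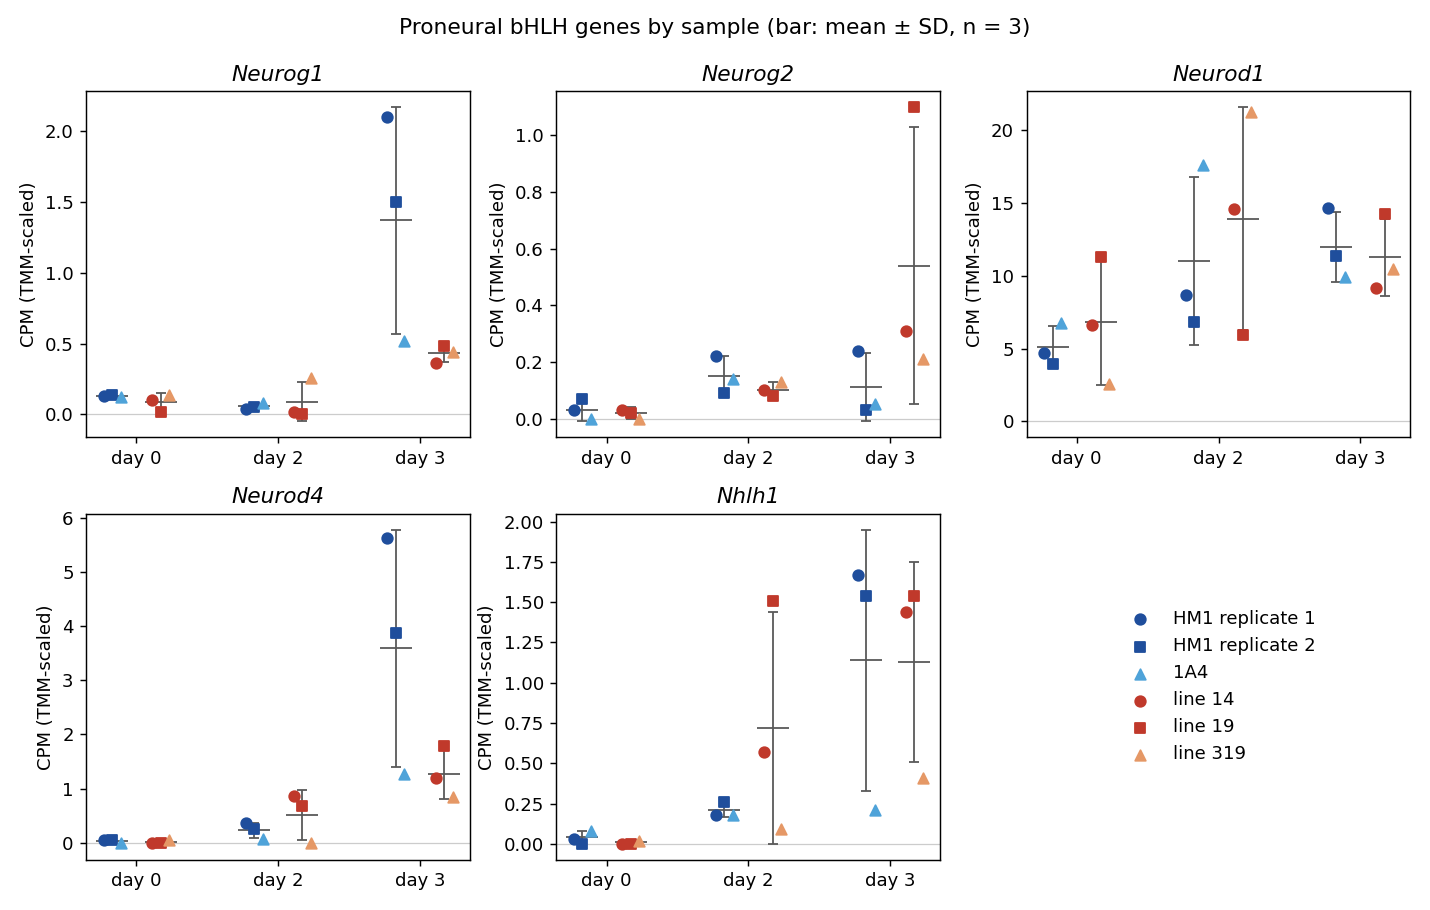
Level of the 5 bHLH genes in CPM (linear y axes, one per gene) in every sample at day 0, day 2 and day 3 (x axis), controls in blue to the left and knockouts in red to the right, with circles and squares for HM1-derived and triangles for blastocyst-derived samples; grey bars show mean ± SD (n = 3). At day 3 the HM1 samples are highest for Neurog1 (2.10 and 1.5 CPM) and Neurod4 (5.63 and 3.87 CPM), and line 19 is highest for Neurog2 (1.10 CPM).

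Dcx encodes doublecortin, a microtubule-binding protein of migrating neurons. Its main transcript has 7 exons on the X chromosome from 143855842 to 143933311 on the minus strand, and 6 transcripts were counted. No day 0 sample held more than 1 read. Day 2 levels were 0.29, 0.16 and 0.18 CPM in controls and 0.21, 0.00 and 0.73 CPM in lines 14, 19 and 319. Day 3 levels were 1.00, 0.50 and 0.52 CPM in controls and 2.36, 4.29 and 0.62 CPM in knockouts. Lines 14 and 19 were the highest samples of day 3, and line 319 lay within the range of the controls.

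In controls the summed Dcx reads went from 1 at day 0 through 29 to 72 at day 3, and in knockouts from 1 through 28 to 292. The ratio of CPM from day 0 to day 3 was 71.8 in controls (95% interval 12.5 to 2870, counting error only) and 276 in knockouts (49.1 to 10900). The step from day 0 to day 2 was called in controls (adjusted p = 0.029) and in knockouts (0.0098). The control call was lost without HM1 replicate 1 (adjusted p = 0.21), HM1 replicate 2 (0.093) or line 1A4 (0.13). The knockout call held in 15 of 15 alternatives. With 1 read per genotype at day 0, no fitted size is given for these steps.

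From day 2 to day 3 Dcx rose by 2.76 ± 0.80 in knockouts (SE, log2 scale, adjusted p = 0.016), in lines 14 and 19 but not in line 319. Without line 319 the value was 4.40, without line 19 it was 1.66 (adjusted p = 0.11), and without line 14 the adjusted p was 0.14. With the 6 transcripts added up it was 2.68 and not called (adjusted p = 0.051). In controls the step was 1.65 ± 0.76 (adjusted p = 0.14), and it was called without line 319 (adjusted p = 0.029). The genotype difference between the steps was 1.11 ± 1.10 (adjusted p = 0.73). The knockout minus control difference at day 3 was 1.79 ± 0.69 (95% interval 0.32 to 3.25, adjusted p = 0.14), and it was 2.13 and called without line 319 (adjusted p = 0.022). Lines 14 and 19 lay 1.67 and 2.51 above HM1 and line 319 lay 0.23 above 1A4, beside an X-linked median of 0.03, 0.19 and 0.48 in these 3 contrasts.

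Tubb3 encodes the neuronal class of beta-tubulin and has 4 exons on chromosome 8 from 123411424 to 123422015 on the plus strand. At day 0 it was at 86.72, 93.64 and 128.85 CPM in controls and 93.40, 74.49 and 169.99 CPM in knockouts. At day 2 the controls were at 93.38, 85.10 and 83.76 CPM and lines 14, 19 and 319 at 73.11, 81.43 and 23.64 CPM. At day 3 the controls were at 33.24, 29.16 and 48.03 CPM and the knockouts at 50.22, 25.61 and 25.75 CPM. Line 319 had the highest Tubb3 level of the 6 samples at day 0 and the lowest at day 2.

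Tubb3 fell in controls by 1.26 on the log2 scale from day 2 to day 3 (SE 0.41, adjusted p = 0.039, lower in 3 of 3). The call was lost without HM1 replicate 1 (adjusted p = 0.26), HM1 replicate 2 (0.28) or line 1A4 (0.079), and with no filter on low counts (0.12). In knockouts the step was −0.82 ± 0.41 (adjusted p = 0.13) and passed the threshold without line 319 (−1.02, adjusted p = 0.012) and in HM1-derived samples alone (−1.03, adjusted p = 0.017). The step from day 0 to day 2 was −0.23 ± 0.40 in controls (adjusted p = 0.70) and −0.90 ± 0.42 in knockouts (0.10), and the latter was called without line 19 (−1.42, adjusted p = 0.037). Line 319 lay 1.82 below 1A4 at day 2, beside a chromosome 8 median of −0.58, and lines 14 and 19 lay 0.29 and 0.13 below HM1. The knockout minus control difference was 0.12 ± 0.40 at day 0 (adjusted p = 0.98), −0.55 ± 0.41 at day 2 (0.47) and −0.11 ± 0.40 at day 3 (0.91). Without line 319 these differences were −0.15, −0.08 and 0.19, and none was called.

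Stmn2 encodes stathmin 2 (SCG10), a microtubule regulator of growing axons, and was the most abundant of the 9 genes per length at day 0 in both genotypes. Its main transcript has 5 exons on chromosome 3 from 8509360 to 8561606 on the plus strand, and 4 transcripts were counted. Day 0 levels were 225.59, 255.67 and 312.76 CPM in controls and 274.73, 240.29 and 470.00 CPM in knockouts. Day 2 levels were 107.65, 78.40 and 70.83 CPM in controls and 112.18, 180.05 and 116.61 CPM in knockouts. Day 3 levels were 65.83, 58.45 and 65.36 CPM in controls and 45.06, 37.39 and 51.86 CPM in knockouts. The knockouts lay above all controls at day 2 and below all controls at day 3.

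Stmn2 fell from day 0 to day 2 by 1.61 on the log2 scale in controls (SE 0.25, adjusted p = 0.00017, lower in 3 of 3) and by 1.24 in knockouts (SE 0.25, adjusted p = 0.0013, lower in 3 of 3). From day 2 to day 3 it fell in knockouts by 1.62 (SE 0.25, adjusted p = 0.00022, lower in 3 of 3), and in controls the step was −0.45 ± 0.24 (adjusted p = 0.21). The 3 calls held in 15 of 15 alternatives each. The genotype difference between the later steps was −1.17 ± 0.35 (95% interval −1.91 to −0.44, unadjusted p = 0.0038, adjusted p = 0.36 by edgeR's quasi-likelihood test) and was not called. The knockout minus control difference was 0.30 ± 0.24 at day 0 (adjusted p = 0.80), 0.67 ± 0.24 at day 2 (95% interval 0.15 to 1.19, adjusted p = 0.15) and −0.50 ± 0.24 at day 3 (95% interval −1.02 to 0.02, adjusted p = 0.24). With day 3 fitted alone the day 3 difference was −0.52 and was called (adjusted p = 0.031).

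Elavl3 encodes HuC, a neuronal RNA-binding protein, with 7 exons on chromosome 9 from 22015005 to 22052010 on the minus strand. It shares 256 bases of exon with Gm49318 on the same strand, so its level is uncertain. Day 0 levels were 9.49, 9.25 and 11.37 CPM in controls and 9.87, 14.83 and 14.19 CPM in knockouts. At day 2 the controls were at 23.37, 23.58 and 24.04 CPM and lines 14, 19 and 319 at 19.58, 38.38 and 12.62 CPM. Day 3 levels were 9.69, 8.92 and 10.78 CPM in controls and 14.88, 12.67 and 8.93 CPM in knockouts. The controls were nearly equal at day 2, and the knockouts lay on both sides of them.

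Elavl3 rose in controls by 1.23 ± 0.31 from day 0 to day 2 (SE, log2 scale, adjusted p = 0.0056, 3 of 3) and fell by 1.27 from day 2 to day 3 (SE 0.31, adjusted p = 0.0076, 3 of 3). Without HM1 replicate 1 or HM1 replicate 2 the adjusted p was 0.073 and 0.069 for the rise and 0.094 and 0.11 for the fall. In knockouts the rise was 0.82 ± 0.31 (adjusted p = 0.047, in lines 14 and 19 but not in line 319) and from day 2 to day 3 it fell by 0.93 (SE 0.31, adjusted p = 0.028, 3 of 3). The knockout rise held in 8 of 15 alternatives. It was 0.32 without the day 2 sample of line 19 (adjusted p = 0.29), and the adjusted p was 0.098, 0.093, 0.075, 0.16 and 0.23 without HM1 replicate 1, HM1 replicate 2, line 1A4, line 14 and line 19 in turn. The knockout fall was −0.42 without that day 2 sample (adjusted p = 0.18), −0.45 without line 19 (0.24), and was lost without HM1 replicate 1 (0.066) or HM1 replicate 2 (0.061). The knockout minus control difference was 0.37 ± 0.30 at day 0 (adjusted p = 0.79), −0.04 ± 0.30 at day 2 (0.96) and 0.29 ± 0.30 at day 3 (0.63).

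**Figure D3:**
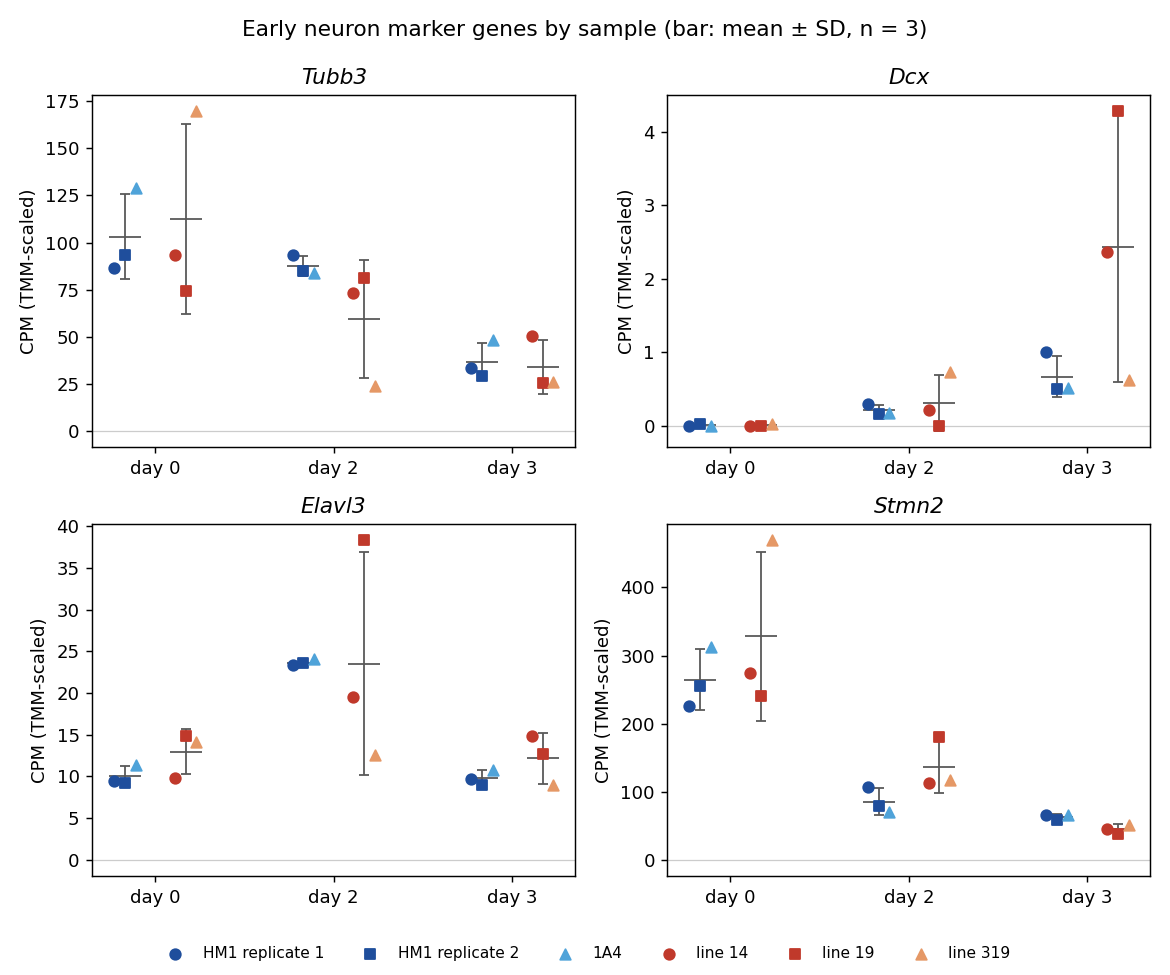
Level of the 4 early neuron marker genes in CPM (linear y axes, one per gene) in every sample at day 0, day 2 and day 3 (x axis), drawn with the same symbols, colours and mean ± SD bars (n = 3) as for the bHLH genes. Stmn2 and Tubb3 are highest at day 0 (up to 470.00 and 169.99 CPM in line 319), Elavl3 is highest at day 2 (38.38 CPM in line 19), and Dcx is highest at day 3 (4.29 CPM in line 19).

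**Figure D4:**
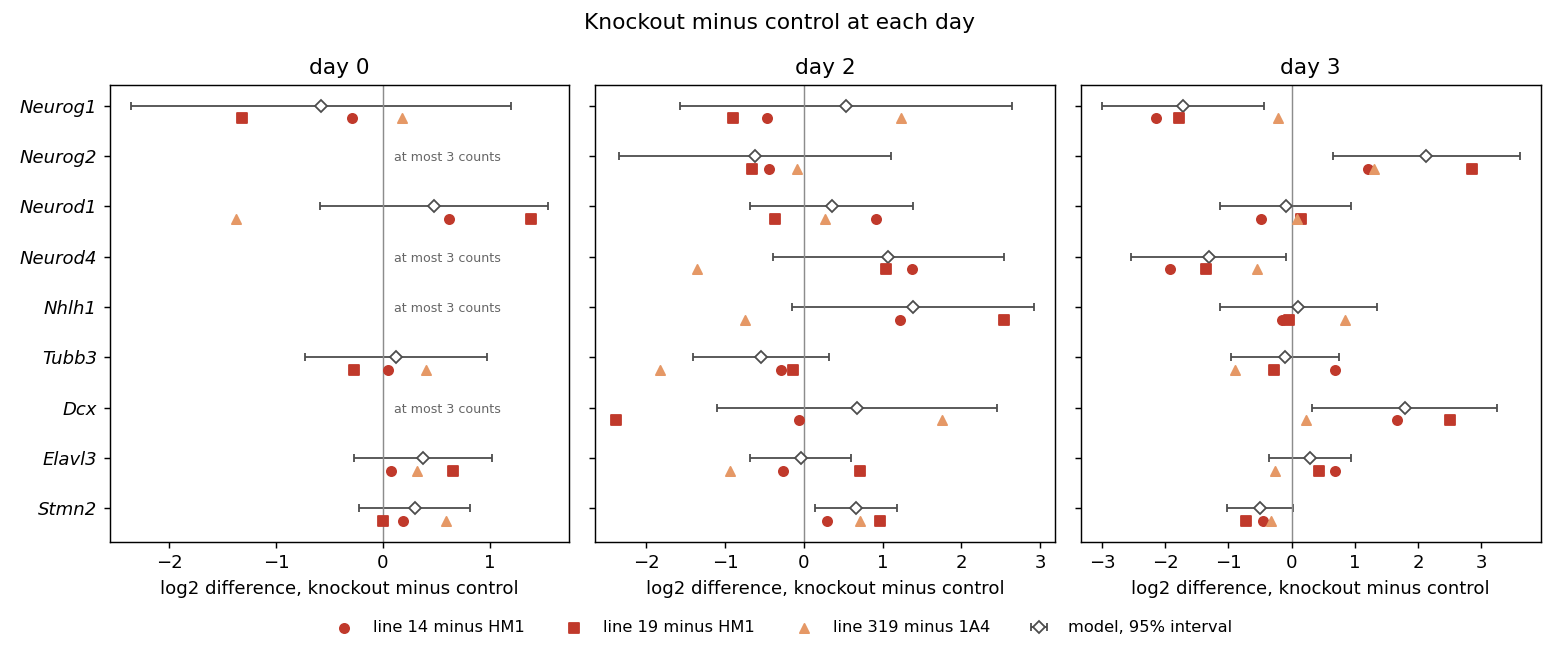
Log2 difference of knockout minus control (x axis) for each gene (y axis) at day 0, day 2 and day 3, with open diamonds and 95% intervals for the model over all samples and coloured points for each knockout line against the control of its own background. None of the 9 genes passed the adjusted threshold; at day 3 lines 14 and 19 lie 2.14 and 1.78 below HM1 for Neurog1, and line 319 lies 0.22 below 1A4.

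Among 11 other neural bHLH genes, 7 passed the filter, and 2 rose in controls from day 2 to day 3 (Bhlhe22 and Nhlh2). Over all genes tested 12.5% were called higher and 8.92% lower in that step. At day 3 edgeR called 5.19% of all genes between genotypes, and 4004 of the 18273 had an unadjusted p below 0.05. Bhlhe22, a factor of neuronal subtypes, went from 0.41 ± 0.18 to 1.86 ± 0.31 CPM (SD, n = 3), a log2 change of 2.20 ± 0.40 (SE, adjusted p = 0.0011). The median log2 change of the 7 was 1.30, or 0.52 without the 2 genes near 0, beside 0.00 over all genes. Between genotypes at day 3 edgeR called none of the 7, DESeq2 called 1, and 2 had an unadjusted edgeR p below 0.05, with a median of 0.59 beside 0.02.

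Of 13 partners and inhibitors of the bHLH factors (E proteins, Id proteins, Hes and Hey repressors), 7 rose and 1, Hes6, fell in controls from day 2 to day 3, with a median of 0.99 beside 0.00. Over all genes tested 12.5% were called higher and 8.92% lower in that step. At day 3 edgeR called 5.19% of all genes between genotypes, and 4004 of the 18273 had an unadjusted p below 0.05. Hes5, a Notch-driven repressor of proneural genes, went from 0.50 ± 0.14 to 9.82 ± 6.94 CPM (log2 change 3.91 ± 0.65, adjusted p = 0.00062). Hes3 rose by 3.22 ± 0.66 (adjusted p = 0.0025), and Id1 and Id2, which bind E proteins, rose by 2.98 ± 0.39 (7.5e-05) and 2.27 ± 0.31 (0.00010). These 4 genes of repressors and inhibitors rose in the same interval as Neurog1, Neurod4 and Nhlh1. At day 3 the Hes-related repressor Hey1 was called between genotypes by edgeR (1 of the 13, beside 3 called by DESeq2 and 3 with an unadjusted edgeR p below 0.05), at 9.90 ± 1.59 CPM in controls and 5.23 ± 1.49 CPM in knockouts (log2 −0.96 ± 0.20, adjusted p = 0.015), with a median over the 13 of 0.01 beside 0.02.

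Of 19 genes of the step from progenitor to newborn neuron, 18 were tested, and 8 rose and 2 fell in controls from day 2 to day 3 (median 0.80). Over all genes tested 12.5% were called higher and 8.92% lower between these days. At day 3 edgeR called 5.19% of all genes between genotypes, and 4004 of the 18273 had an unadjusted p below 0.05. Pou3f2, a neuronal POU factor, rose by 4.37 ± 0.74 (adjusted p = 0.00065), from 0.17 ± 0.11 to 3.74 ± 2.50 CPM. Onecut1 rose by 2.68 ± 0.39 (adjusted p = 0.00018), Ebf2 by 2.28 ± 0.34 (0.00021) and Ebf1 by 1.91 ± 0.50 (0.012). At day 3 edgeR called 1 of the 18 between genotypes, DESeq2 called 2, and 4 had an unadjusted edgeR p below 0.05. The gene called by edgeR, Onecut2, was higher in knockouts at 14.41 ± 1.92 against 6.37 ± 0.75 CPM (log2 1.18 ± 0.32, adjusted p = 0.043). The median of the 18 was 0.02, as over all genes.

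Among 24 other neuronal cytoskeleton, RNA-binding and synaptic genes, 4 rose and 1 fell in controls from day 2 to day 3 (median 0.23). Over all genes tested 12.5% were called higher and 8.92% lower in that step, and 5.19% were called between genotypes at day 3. Gap43, a growth cone protein, rose by 2.01 ± 0.39 (adjusted p = 0.0019), and Elavl4, a relative of Elavl3, rose by 1.90 ± 0.37 (0.0019). The microtubule protein gene Mapt rose by 1.85 ± 0.63 (adjusted p = 0.045), and the synaptotagmin gene Syt4 fell by 2.98 (SE 0.33, adjusted p = 1.7e-05). Day 3 knockouts were lower for Elavl4 (3.40 ± 1.75 against 10.10 ± 2.76 CPM, log2 −1.64 ± 0.37, adjusted p = 0.021) and Tagln3 (−1.18 ± 0.27, adjusted p = 0.022) and higher for Syt4 (1.26 ± 0.33, adjusted p = 0.041). The median of the 24 was −0.04 beside 0.02.

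Rest, the repressor of neuronal genes in non-neuronal cells, was at 491 ± 30.6, 235 ± 21.8 and 128 ± 13.5 CPM in controls at day 0, day 2 and day 3, and at 536 ± 78.1, 218 ± 140 and 125 ± 3.47 CPM in knockouts (SD, n = 3). Of the 4 genes in the list of Rest and its corepressors edgeR called none from day 2 to day 3 in controls (DESeq2 called 1, and 1 had an unadjusted edgeR p below 0.05) and none between genotypes at day 3 (0 and 0 by the same measures). The medians were 0.25 and −0.01. Over all 18273 genes tested edgeR called 21.4% and 5.19% in these comparisons, and 6119 and 4004 had an unadjusted p below 0.05. For Rest itself the 2 differences were −0.87 ± 0.34 (adjusted p = 0.078) and −0.03 ± 0.33 (adjusted p = 0.97).

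Markers of other cell types moved with the days and with the genotype. Over all genes tested edgeR called 0.854%, 1.60% and 5.19% between genotypes at day 0, day 2 and day 3. At day 3, 4004 of the 18273 had an unadjusted p below 0.05. From day 2 to day 3 in controls 12.5% of all genes were called higher and 8.92% lower. At day 2 Sox2, from the progenitor list, and Foxd3, from the neural crest list, were called higher in knockouts, and the feeder markers Postn and Acta2 lower. Sox2 was at 137.34 ± 20.82 CPM in controls and 240.59 ± 49.63 CPM in knockouts, and Foxd3 at 22.53 ± 5.92 and 69.59 ± 9.48 CPM. Sox2 and Foxd3 were already present at day 0, at 380.16 ± 44.13 and 461.01 ± 77.08 CPM and at 19.90 ± 4.42 and 39.78 ± 10.63 CPM. Foxd3 was at 0.07 ± 0.08 and 0.16 ± 0.13 CPM at day 3. Their day 2 levels are therefore not read here as a sign of progenitor or neural crest cells. Of 6 neural progenitor markers 4 rose in controls from day 2 to day 3, and at day 3 the summed level was 425 to 481 CPM in controls and 415 to 1040 CPM in knockouts, with 1 marker, Pax6, called higher. Of 12 spinal and hindbrain neuron subtype markers 3 were called higher in knockouts at day 3 (sum 24.1 to 28.3 CPM in controls and 38.3 to 85.2 CPM in knockouts). They included Lhx1, at 9.02 ± 5.62 against 42.26 ± 22.83 CPM (log2 2.24 ± 0.46, adjusted p = 0.013). Mnx1 of the same list was lower in knockouts without a call, at 12.13 ± 3.59 against 4.37 ± 1.87 CPM (log2 −1.40 ± 0.43, edgeR adjusted p = 0.069). Lhx1 was called in the other direction before, at 8.77 ± 4.92 CPM in controls and 0.20 ± 0.03 CPM in knockouts at day 0 and at 5.13 ± 0.45 and 0.25 ± 0.24 CPM at day 2. Of 7 neural crest and sensory neuron markers 6 were tested and 3 were called higher in knockouts (sum 14.3 to 16.0 and 22.5 to 46.3 CPM), among them Pou4f1 at 6.20 ± 0.34 against 14.83 ± 3.72 CPM (1.26 ± 0.20, adjusted p = 0.0042). Of 9 feeder fibroblast markers 8 were tested and 2 were lower in knockouts (674 to 853 against 370 to 572 CPM), and of 5 glial markers tested edgeR and DESeq2 called none and 1 had an unadjusted edgeR p below 0.05 (48.6 to 53.6 against 38.5 to 46.3 CPM). Of the 6 pluripotent cell markers edgeR and DESeq2 called none between genotypes at day 3, and 2 had an unadjusted edgeR p below 0.05. The feeder sum in controls was 1570 to 2200 CPM at day 0, of which Fn1 alone gave 1762 ± 271 CPM on average and Col1a1 52.5 ± 12.4 CPM. Of 6 endocrine pancreas markers 2 were tested and called by DESeq2 but not by edgeR (2 with an unadjusted p below 0.05), with sums of 4.91 to 6.43 CPM in controls and 8.45 to 13.8 CPM in knockouts at day 3. The part of these cell types in the values of the 9 genes was not tested.

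Among the genes whose pattern was most like the mean of the 9 genes, as Pearson's r of log2 CPM over 18 samples, were Scg3 (0.945), Jam3 (0.937), Mllt3 (0.931) and Scn8a (0.931). The 9 genes themselves had an r with that mean from −0.81 for Stmn2 and −0.56 for Tubb3 to 0.91 for Nhlh1. The samples fall into 3 days and share the lines, and these values are a description only.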

How the data were processed

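Per the labels, polyA RNA was made into stranded TruSeq libraries, and the submitters' processing notes name bcl2fastq 2.17.1.14, STAR 2.4.0k, SAMtools, HTSeq and build mm10. The authors deposited raw counts for Ensembl transcripts. A read counts for every transcript it overlaps, so 1 transcript per gene was kept, the one with most counts in all libraries. Names and positions came from GENCODE M21, which matched 108214 of 110379 identifiers, and the unmatched ones held 1.44% to 2.46% of counts. The use of strand in counting is not given in the sources used here. The 4 technical libraries of each of 18 samples were added up (72 libraries, chi-square per degree of freedom 1.01 to 1.03 among them).

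Tests used edgeR 4.0.16 with limma 3.58.1 in R 4.3.3: TMM scaling, filterByExpr, and a quasi-likelihood model of 6 groups of genotype and day plus a term for genetic background, with 11 residual degrees of freedom. P-values were adjusted over all 18273 genes tested and called below 0.05. The shares of all genes called are those of this edgeR fit and were not taken for DESeq2 or the other alternatives. Single-line log2 values used a prior count of 2. P-values measure only the spread between these samples, and HM1 enters as 2 replicates. Count ratios and their 95% intervals cover counting error only. The fit was first run on simulated data without effects of day or background. Changes were set there only in genes with a mean above 1 CPM, so that run does not bear on genes of lower level. Alternatives were DESeq2 1.42.0, RLE scaling, other filters, transcript choices and models, HM1-derived samples alone, and leaving out each sample series in turn. Series follow 1 line over 3 days and so pair samples between days, and 16 of 18 same-series correlations of deviations from the group means were above 0.1. The 9 genes, the lists and the naming rule were chosen with earlier results of these data known. The rule named the 9 genes, up to 4 called genes per pathway list with the largest change (at least 1 CPM), the 2 most abundant genes of each cell type list with any at 0 throughout, and the 5 genes of most similar pattern. From cell type lists only genes that bear on a comparison are named.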

Additional observations from a re-analysis of the deposited data

Results flagged for a closer look

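For 6 combinations of gene and day, both HM1-derived knockout lines lay beyond both HM1 replicates on one side while the blastocyst-derived line 319 lay on the other side of 1A4. Combinations with at most 3 reads in every sample were not considered. These differences between backgrounds were not tested, since the blastocyst-derived side has 1 sample per genotype. The share of all genes with this pattern was not counted, so the 6 combinations are not read as a trait of these genes. Values are log2 differences of CPM with a prior count of 2. Neurog1 at day 0 differed by −0.29 in line 14, −1.32 in line 19 and 0.18 in line 319, from 7 reads or fewer in each sample. At day 2 its values were −0.46, −0.90 and 1.23, from 6 reads or fewer in each knockout sample. Neurod1 at day 0 differed by 0.62, 1.38 and −1.37 in the same order of lines. Neurod4 at day 2 gave 1.38, 1.04 and −1.35, and Nhlh1 at day 2 gave 1.22, 2.54 and −0.75. Elavl3 at day 3 gave 0.68, 0.44 and −0.27.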

How the results depend on the processing

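Of the single-gene values under 16 alternatives, 903 kept direction and call, 53 lost a call, 19 gained one and 31 changed sign. For the counts that follow, the share of all genes called under each alternative was not taken, so they are not read against it. The count of the 9 genes called between genotypes at day 3 was 2 with the day fitted alone, 2 in HM1-derived lines only, and 0 to 3 when 1 sample series was left out. At day 2 leaving out a series gave 0 to 1. For the control step from day 0 to day 2 the count of 5 became 3 with transcripts added up, 3 with no background term and 2 with the replicate block, and 1 to 6 leaving out a series. Leaving out a series gave 2 to 6 for the later control step, 3 to 6 and 1 to 6 for the earlier and later knockout steps, and 0 to 1 for the later genotype difference of steps. The later knockout count was 2 without line 19 at day 2. The paired fit changed no other call than those given above.

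Sign changes were all among differences with no call. In HM1-derived lines alone, knockout minus control was −0.09 for Tubb3 at day 0, −1.43 for Neurog1, −0.56 for Dcx and 0.29 for Elavl3 at day 2, and −0.12 for Nhlh1 and 0.28 for Tubb3 at day 3. The control step of Tubb3 to day 2 was then 0.01 and the later knockout step of Neurod1 0.14. With transcripts added up Elavl3 at day 2 was 0.0, with no background term Nhlh1 at day 3 was −0.0, and without line 19 at day 2 the Neurog1 step to day 2 in knockouts was 0.23. Leaving out a series, the day 0 differences ranged from −0.15 to 1.02 for Neurod1, −0.15 to 0.46 for Tubb3 and −0.02 to 0.45 for Stmn2. Day 2 differences ranged from −2.08 to 1.36 for Neurog1, −0.62 to 1.19 for Dcx and −0.55 to 0.33 for Elavl3. Day 3 differences ranged from −0.35 to 0.12 for Neurod1, −0.04 to 0.33 for Nhlh1 and −0.53 to 0.19 for Tubb3. The Neurod1 step to day 3 ranged from −0.15 to 0.75 in controls and −0.86 to 0.14 in knockouts, the Neurog1 step to day 2 in knockouts from −1.71 to 0.83, and the genotype difference of the later Neurog1 steps from −2.93 to 0.17. Settings without a series test fewer samples; otherwise the cause was not tested. Neurog2, Neurod4, Nhlh1 and Dcx held at most 3 counts in every sample at day 0, so a lower level in either genotype was not detectable there. No higher level was called for them at that day.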
